A study of Mus musculus with 7 samples.

Results

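Mouse embryonic fibroblasts (MEF) transduced with 3 transcription factors, Olig2, Sox10 and Nkx6.2 (MEF-3F), were set against MEF transduced with 2 of them, Olig2 and Sox10 (MEF-2F). The 2 populations differ by label in the third factor alone. It holds 243 cells, 161 of MEF-3F and 82 of MEF-2F, out of 1124 in the series. They are the barcodes with 500 or more UMIs in these 2 of the 7 libraries, a UMI (unique molecular identifier) being a tag that marks 1 captured RNA molecule.

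All cells came from C57BL/6 mice, and the factors were delivered by virus. Per the labels, converted cells were kept in OPC medium and untransduced MEF in MEF medium; the time after transduction and the promoter that drove the factors are not given in the sources used here. Single cells were released with trypsin-EDTA, captured as droplets on the ddSEQ system, and the 3′ ends of their RNA were counted. Untransduced MEF, primary oligodendrocyte progenitor cells from brain (pOPC), and cerebral pericytes given the same 3 factors (PC-3F) or 2 factors (PC-2F) served as context. Every population was 1 library, so nothing here has a replicate check, no test between populations exists and no p-value is given. Intervals are exact, at 95%, and cover the error of counting only, so they hold nothing of how cultures vary.

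Oligodendrocyte progenitor cells are the dividing glial cells of the brain that give rise to myelinating oligodendrocytes. OLIG2 is a basic helix-loop-helix factor needed to form them, and SOX10 is an HMG-box factor that keeps the lineage and later drives myelin genes. SOX10 has the same place in the neural crest, where it is needed for Schwann cells, the myelinating glia of peripheral nerves, and for melanocytes. NKX6.2 is a homeodomain factor of the ventral neural tube and of maturing oligodendrocytes.

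The deposited values are codes, read here as UMI numbers by a rule that no label states; whether a cell has any UMI of a gene does not depend on it. MEF-3F held 458271 UMIs with a median of 1866 a cell, and MEF-2F held 230184 with a median of 2411. A single UMI more or less is therefore a large step for weak genes: the floor, set at 3 UMIs, was 6.55 CPM (a count scaled to the library total) in MEF-3F and 13.0 CPM in MEF-2F. In each library the barcodes form 2 runs, seen where their alphabetical order starts again, and the labels do not say what these blocks are. Block 1 and block 2 held 40 and 121 cells in MEF-3F, and 65 and 17 cells in MEF-2F. In block 2 of MEF-2F 5 cells gave 57.1% of its 49120 UMIs, so its floor was 61.1 CPM. No barcode was shared between libraries. Mitochondrial UMIs made up 0.797% of MEF-3F and 0.329% of MEF-2F, and the part of this gap in the results was not tested.

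The delivered genes were read first. Olig2 stood at 330 CPM in MEF-3F and 65.2 CPM in MEF-2F, a 5.06-fold ratio (2.97 to 9.26), and at 0 in untransduced MEF; viral and endogenous RNA cannot be told apart. Sox10 stood at 244 CPM in MEF-3F and 130 CPM in MEF-2F, a ratio of 1.88 (1.24 to 2.91). Nkx6-2 had 1 UMI in MEF-3F and 1 UMI in MEF-2F, so its RNA did not separate the libraries. A 3′ tag need not fall on viral RNA, so this checks neither label. At least 1 UMI of Olig2 or Sox10 was seen in 84 of 161 cells of MEF-3F (52.2%) and 27 of 82 cells of MEF-2F (32.9%). The first blocks had 32.5% in MEF-3F and 35.4% in MEF-2F, and the second blocks 58.7% in MEF-3F and 23.5% in MEF-2F, so the order of the shares turned between them.

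Markers of the donor and of cells that could have come along were read next. Thy1, a fibroblast surface marker, had no UMI in MEF-3F or MEF-2F, against 413 CPM in untransduced MEF. The fibroblast list as a whole was still there, with a summed level of 16610 CPM in MEF-3F and 33460 CPM in MEF-2F, while untransduced MEF had 43338 CPM and pOPC 290 CPM. No gene of the endothelial, macrophage, epithelial and mesothelial, or muscle lists reached the minimum for measurement, and their summed levels were at most 17.4 CPM in either library. Xist, transcribed from the inactive X chromosome, stood at 61.1 CPM in MEF-3F and 56.5 CPM in MEF-2F, against 1.27 CPM in untransduced MEF. Ddx3y, a Y-linked gene, stood at 28.4 CPM in MEF-3F and 56.5 CPM in MEF-2F and 89.9 CPM in untransduced MEF.

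To count as measured, a gene needed at least 10 UMIs and a level of at least 20 CPM in MEF-3F or MEF-2F, and 7788 genes met this. It was called at a 2-fold ratio with an interval that excludes 1. By that rule 729 genes were higher in MEF-3F (9.36%) and 546 were lower (7.01%). The median log2 ratio, with 0.5 UMIs added, was 0.11, so ratios below are relative to a centre near 0. A large difference, at least 4-fold and with both interval bounds beyond 2-fold, was seen for 69 higher genes (0.886%) and 83 lower genes (1.07%).

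Cells of 1 library differed among themselves as well. Block 2 over block 1 of MEF-3F gave 430 higher genes (6.26%) and 364 lower genes (5.3%) of 6871 by the same rule, and block 2 over block 1 of MEF-2F gave 170 (4.02%) and 176 (4.17%) of 4225. For this reason a gene is called steady below only if all 4 pairs of 1 block of MEF-3F with 1 block of MEF-2F gave a ratio of 2-fold or more in the same direction. These ratios have 0.5 UMIs added, not the floor. A weak gene without a UMI in block 2 of MEF-2F, where the floor was 61.1 CPM, can therefore be steady through that addition. Block 1 of MEF-3F over block 1 of MEF-2F gave 294 higher (6.72%) and 309 lower genes (7.06%), and over block 2 of MEF-2F 244 (10.1%) and 213 (8.8%). Block 2 of MEF-3F over block 1 of MEF-2F gave 726 (10.3%) and 544 (7.71%), and over block 2 of MEF-2F 398 (5.79%) and 480 (6.99%). Of the called genes, 257 higher (3.3%) and 152 lower (1.95%) were steady. Of the large differences, 48 higher genes (0.616%) and 56 lower genes (0.719%) were steady.

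**Figure D1:**
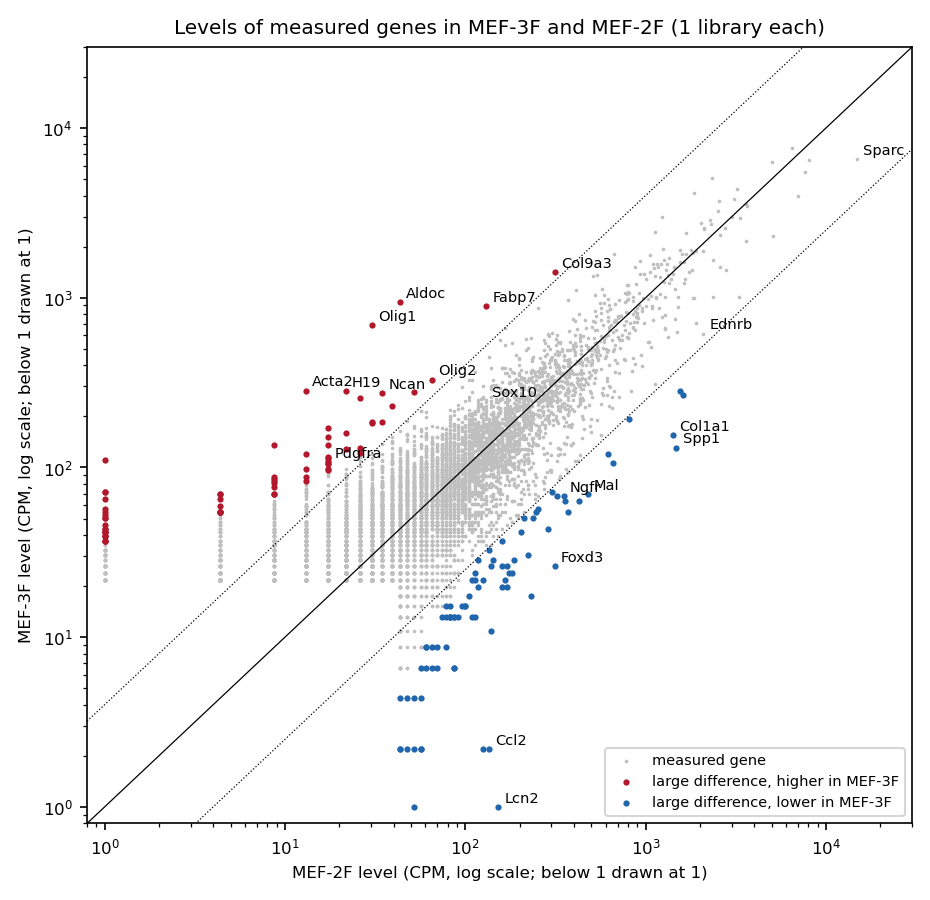
Level of each of the 7788 measured genes in MEF-3F (vertical axis, CPM, log scale) against MEF-2F (horizontal axis, CPM, log scale), 1 library each. Red marks the 69 genes and blue the 83 genes with a large difference; the solid line is equality and the dotted lines are 4-fold. Olig1, Aldoc and Fabp7 lie far above the line at high levels, and Col1a1, Spp1 and Foxd3 far below it.

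The plot of levels in the whole libraries shows where the differences lie. The labelled genes are described by their lists below. Points at the left edge are genes without a UMI in MEF-2F, whose ratios are bounds only.

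Of the oligodendrocyte progenitor (OPC) list, 20 of 26 genes were measured, 10 were called higher in MEF-3F and 1 lower, and the median log2 ratio was 1.20 against 0.11 over all measured genes. The list holds the delivered Olig2 and Sox10, and Olig2 is among the 10, so viral RNA may be part of these values. Olig1, the close relative and chromosomal neighbour of Olig2 (chr16:91269772-91271933, plus strand, GRCm38), had the largest ratio of the steady genes at 100 CPM or more. It stood at 687 CPM in MEF-3F and 30.4 CPM in MEF-2F, a 22.6-fold ratio (10.8 to 56.7). By block it stood at 155 and 818 CPM in MEF-3F, against 38.7 and 0 CPM in MEF-2F. The rule for steady genes requires such a gap, and the 0 is of a block with a floor of 61.1 CPM. At least 1 UMI of Olig1 was found in 89 of 161 cells of MEF-3F (55.3%) and in 4 of 82 cells of MEF-2F (4.88%).

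Receptors and surface proteins of the same list went the same way at lower levels. Pdgfra encodes the receptor for the growth factor PDGF-AA that keeps progenitors dividing, and marks them in brain. It stood at 107 CPM in MEF-3F and 17.4 CPM in MEF-2F, a 6.15-fold ratio (2.26 to 23.5), still far under the 1371 CPM of pOPC. Gpr17, a receptor of progenitors about to differentiate, stood at 135 CPM in MEF-3F and 17.4 CPM in MEF-2F, a 7.79-fold ratio (2.89 to 29.5). Ncan, a secreted chondroitin sulphate proteoglycan of brain matrix, stood at 273 CPM in MEF-3F and 34.8 CPM in MEF-2F, a 7.85-fold ratio (3.86 to 18.6). All of these were steady over the block pairs. So were Scrg1, at 214 CPM in MEF-3F against 56.5 CPM in MEF-2F, and C1ql1, at 91.6 against 17.4 CPM. The MEF-2F levels of all these genes lie under 61.1 CPM, the floor of block 2 of MEF-2F. In the pairs with that block they can therefore be steady through the 0.5 UMIs added.

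Fabp7, a fatty acid carrier found in radial glia and glial progenitors, was the strongest of the list. It stood at 888 CPM in MEF-3F and 130 CPM in MEF-2F, a 6.81-fold ratio (4.7 to 10.2), but at 188 and 1060 CPM in the blocks of MEF-3F against 149 and 61.1 CPM in those of MEF-2F. The difference was thus small between the first blocks, and Fabp7 was not steady. Olig2 was not steady either: its level was 155 and 373 CPM in the blocks of MEF-3F against 82.8 and 0 CPM in those of MEF-2F. Cntn1 and Sox5 completed the genes called higher. The proteoglycan genes Bcan, Vcan and Cspg5 and the phosphatase gene Ptprz1 had ratios of 1.33 to 1.79 and were not called. Cspg4, which encodes NG2, stood at 286 CPM in MEF-3F and 365 CPM in MEF-2F. The 1 gene called lower was Ednrb, which the neural crest shares and which is described with it below.

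Astrocyte genes shared this direction: of 14 listed, 9 were measured, 4 were called higher and none lower, and all 4 were steady, where 9.36% of all measured genes were called higher and 3.3% were also steady. Aldoc, the brain aldolase of glycolysis, stood at 947 CPM in MEF-3F and 43.4 CPM in MEF-2F, a 21.8-fold ratio (11.7 to 45.8). Its blocks stood at 398 and 1082 CPM in MEF-3F, against 55.2 and 0 CPM in MEF-2F. Fgfr3, a fibroblast growth factor receptor, stood at 69.8 CPM in MEF-3F against 8.69 CPM in MEF-2F, which is under the floor there. S100b, a calcium-binding protein of glia, stood at 574 CPM in MEF-3F against 217 CPM in MEF-2F. Atp1b2, a sodium pump subunit, completed the 4. Aldoc exceeded its level in pOPC, 410 CPM, and Gfap and Aqp4 were not measured. Of 12 measured progenitor and radial glia genes, 2 were called higher, Fabp7 and the acyl-CoA binding protein gene Dbi (2996 CPM in MEF-3F, 1234 CPM in MEF-2F). Nes, an intermediate filament gene of neural progenitors, was called lower at 137 CPM in MEF-3F and 361 CPM in MEF-2F. Sox2 stood at 332 CPM in MEF-3F and 191 CPM in MEF-2F and was not called.

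**Figure D2:**
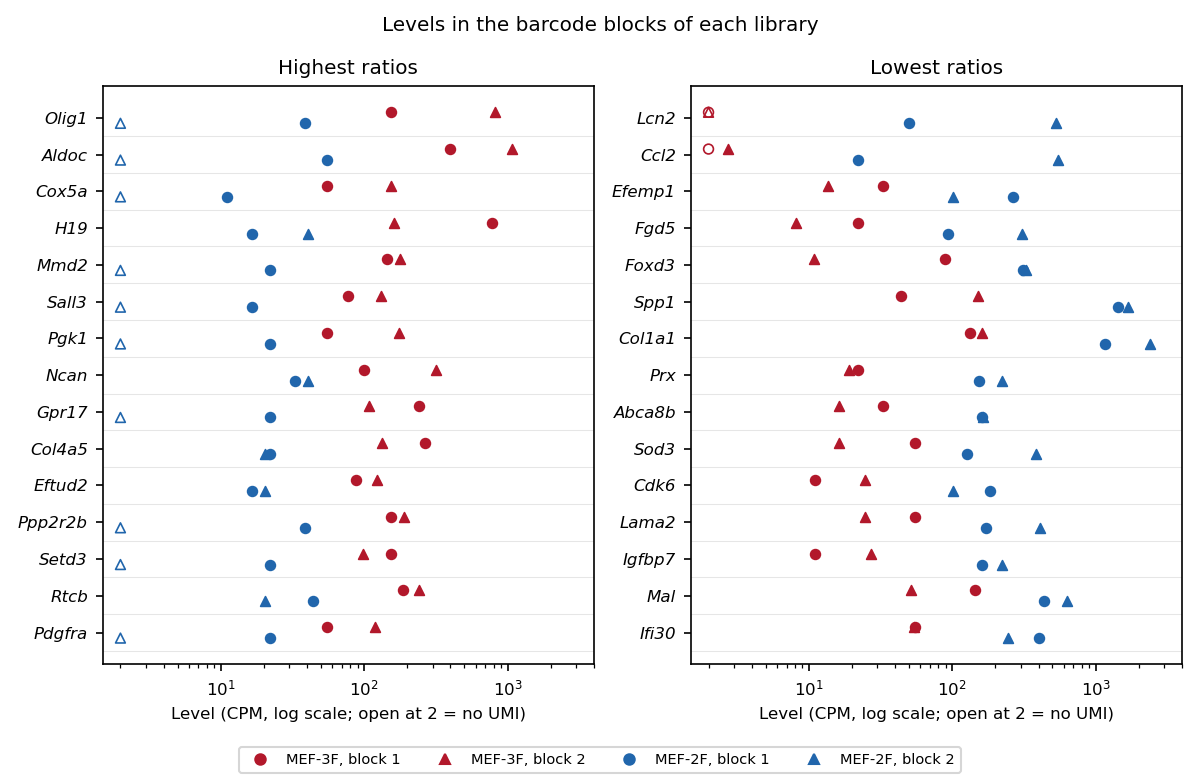
Levels (CPM, log scale) of the 15 genes with the highest (left) and the 15 with the lowest (right) ratio of MEF-3F over MEF-2F among steady genes. Red marks MEF-3F and blue MEF-2F, circles block 1 and triangles block 2 of a library; open symbols at 2 are blocks without a UMI. No red symbol overlaps the blue ones of its gene, which the rule requires, and many highest genes have no UMI in block 2 of MEF-2F.

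The levels by block show the genes that passed the rule for naming: steady, at 100 CPM and 30 UMIs or more, and with an interval wholly beyond 2-fold, which 26 higher and 36 lower genes met. Beside the glial genes, the highest included Sall3, a zinc finger factor gene at 518 CPM in pOPC, Mmd2 and Ppp2r2b. Eftud2, Setd3 and Rtcb, at 116, 109 and 231 CPM in MEF-3F and 17.4, 17.4 and 39.1 CPM in MEF-2F, encode a splicing factor, a methyltransferase and an RNA ligase. Cox5a and Pgk1 are enzyme genes of energy metabolism. Cox5a, a subunit of cytochrome c oxidase, stood at 135 CPM in MEF-3F and 8.69 CPM in MEF-2F, against 115 CPM in untransduced MEF. Pgk1, a glycolytic enzyme gene, stood at 151 CPM in MEF-3F and 17.4 CPM in MEF-2F, against 133 CPM in untransduced MEF. Cox5a had a UMI in 39 of 161 cells of MEF-3F and in 2 of 82 cells of MEF-2F, a count that needs no decoding of UMI numbers.

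Genes of Schwann cells and the neural crest lay on the other side. Of 25 listed, 20 were measured, 9 were called lower in MEF-3F and 2 higher, and the median log2 ratio was -0.78. Foxd3, a forkhead factor that marks early neural crest and glial precursors of nerves, stood at 26.2 CPM in MEF-3F and 313 CPM in MEF-2F, an 11.9-fold lower level (6.44 to 24.2). Its blocks stood at 88.5 and 10.9 CPM in MEF-3F, against 309 and 326 CPM in MEF-2F. A UMI of Foxd3 was found in 8 of 161 cells of MEF-3F and 31 of 82 cells of MEF-2F, and the gene stood at 1.27 CPM in untransduced MEF and had no UMI in pOPC. Pou3f1, a factor of promyelinating Schwann cells, was the other steady gene called lower, at 41.5 CPM in MEF-3F and 204 CPM in MEF-2F. The 2 called higher were S100b, which was steady, and Fabp7, both of which are also on glial lists above.

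For receptors of these cells the blocks differed. Ngfr, the low-affinity neurotrophin receptor, stood at 67.6 CPM in MEF-3F and 352 CPM in MEF-2F, a 5.2-fold lower level (3.4 to 8.14). Its blocks, however, stood at 321 and 5.44 CPM in MEF-3F, against 282 and 611 CPM in MEF-2F, so the first blocks alone gave no lower level. Ednrb, the endothelin receptor of crest and glial precursors, stood at 1128 and 489 CPM in the blocks of MEF-3F, against 2259 and 1445 CPM in those of MEF-2F, and was 3.39-fold lower overall (2.92 to 3.94). Pmp22, Dhh and L1cam were also called lower. By summed level, block 1 of MEF-3F was thus nearer to MEF-2F in Ngfr and Ednrb than block 2 was. In that block 1, 5 of 40 cells gave 38.2% of the UMIs. Per cell, the list took a median 0.21% of UMIs in block 1 of MEF-3F and 0.367% in block 2, against 0.515% in MEF-2F. The typical cell of block 1 was thus not the nearer one. Outside the list, Prx, which encodes periaxin of Schwann cell myelin, and Mal, a myelin and lymphocyte proteolipid gene, were among the lowest steady genes. Prx stood at 19.6 CPM in MEF-3F and 169 CPM in MEF-2F, and Mal at 69.8 CPM in MEF-3F and 478 CPM in MEF-2F.

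Of 28 genes of oligodendrocyte differentiation and myelin 17 were measured, 5 were called lower and 2 higher, and the median log2 ratio was -0.39. Of all measured genes 7.01% were called lower and 9.36% higher, so 2 higher genes are no shift of the list. Cnp, a phosphodiesterase gene of myelinating glia, stood at 408 CPM in MEF-3F and 878 CPM in MEF-2F, a 2.15-fold lower level (1.75 to 2.64). Its blocks stood at 619 and 356 CPM in MEF-3F, against 779 and 1242 CPM in MEF-2F. The first blocks differed by under 2-fold, so Cnp was not steady. Trf, Cldn11 and Aspa were also called lower, and Mbp was not called at 67.6 CPM in MEF-3F and 117 CPM in MEF-2F. The 2 called higher had no UMI in MEF-2F. Myrf, the membrane-bound factor that switches on central myelin genes, had 15 UMIs in MEF-3F and was at least 2.51-fold higher with MEF-2F set at the floor. Car2, a carbonic anhydrase gene, had 12 UMIs and was at least 2.01-fold higher. Melanocyte genes were weak, with 3 of 8 measured and 1, Pmel, called higher at 14 UMIs in MEF-3F and 0 in MEF-2F.

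The 250 bases before the start of 1 steady gene of each side are shown, the progenitor receptor Pdgfra and the crest factor Foxd3, from RefSeq on GRCm38.p6. Capitals mark matches, on either strand, to 4 motifs that factors of these families are known to bind: TAATTA for homeodomains of the NKX6 type, the E-boxes CAGATG and CATATG for OLIG-type factors, and ACAAAG for SOX factors. Pdgfra (chr5:75152001-75152250, plus strand) held 1 CAGATG, read as CATCTG, and Foxd3 (chr4:99656049-99656298, plus strand) held none of the 4. Over 32851 promoters of the same length, TAATTA occurred in 4.84%, CAGATG in 14.4%, CATATG in 3.46% and ACAAAG in 16.5%, so a single match is common. A match is letters, not a bound site, and no match says only that these letters are not in this window.
Pdgfra: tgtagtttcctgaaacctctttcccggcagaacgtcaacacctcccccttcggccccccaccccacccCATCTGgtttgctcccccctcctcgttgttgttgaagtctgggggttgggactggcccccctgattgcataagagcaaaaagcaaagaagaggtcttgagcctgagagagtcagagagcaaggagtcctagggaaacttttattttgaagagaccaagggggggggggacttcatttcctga
Foxd3: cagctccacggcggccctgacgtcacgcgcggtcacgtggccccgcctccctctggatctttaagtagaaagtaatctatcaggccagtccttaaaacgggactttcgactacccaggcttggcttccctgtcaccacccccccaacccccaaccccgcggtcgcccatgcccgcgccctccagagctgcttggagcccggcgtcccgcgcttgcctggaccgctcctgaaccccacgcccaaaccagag

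Of 29 fibroblast matrix genes 23 were measured, 9 were called lower and none higher, and the median log2 ratio was -0.65. Still, 1 measured member that was not called was 2-fold or more higher in all 4 block pairs. Of the 9 called lower, only Col1a1, a chain of the fibrillar type I collagen, was steady. It stood at 155 CPM in MEF-3F and 1425 CPM in MEF-2F, a 9.2-fold lower level (7.1 to 12.1), against 4815 CPM in untransduced MEF. Its blocks stood at 133 and 160 CPM in MEF-3F, against 1165 and 2382 CPM in MEF-2F. A UMI of Col1a1 was found in 27 of 161 cells of MEF-3F and 42 of 82 cells of MEF-2F. Col1a2, the partner chain, stood at 1012 CPM in MEF-3F and 3302 CPM in MEF-2F, but its blocks in MEF-3F stood apart at 2145 and 734 CPM. Sparc, a collagen-binding matrix protein, stood at 6590 CPM in MEF-3F and 14845 CPM in MEF-2F. Collagens differed among themselves: Col3a1 stood at 2577 CPM in MEF-3F and 2754 CPM in MEF-2F, while Col5a1, Col6a1, Col6a2 and Col6a3 were called lower, as were Fbn1 and S100a4.

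The sheets of basement membrane followed, with 6 of 14 measured genes called lower and 2 higher. Lama2, the laminin chain of muscle and Schwann cell basement membrane, stood at 30.5 CPM in MEF-3F and 222 CPM in MEF-2F and was steady. Hspg2 (perlecan), Nid1, Nid2, Lamc1 and Col4a2 were the others called lower. Col4a5, a collagen IV chain, went the other way and was steady at 159 CPM in MEF-3F and 21.7 CPM in MEF-2F, and Agrn (agrin) was also called higher. Of 10 measured targets of TGF-beta and YAP, 4 were called lower, Crim1, Tgfb1i1, Thbs1 and Tgfbi, and none higher. Efemp1, Sod3 and Abca8b, genes of connective tissue cells, were among the lowest steady genes, with Efemp1 at 17.5 CPM in MEF-3F and 230 CPM in MEF-2F.

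Acta2, the smooth muscle actin of contractile fibroblasts, shows how few cells can carry a ratio. It had 130 UMIs in MEF-3F and 3 in MEF-2F, a 21.8-fold ratio (7.28 to 107), yet 1 cell of MEF-3F gave 44.6% of them and only 19 of 161 cells had any. Its level, 284 CPM in MEF-3F and 13.0 CPM in MEF-2F, was far from the 9155 CPM of untransduced MEF. The contractile list had 1 higher gene and 2 lower genes, Cnn2 and Mylk, of 9 measured, with a median log2 ratio of -0.00.

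Cartilage genes were high in both libraries and low in untransduced MEF. Their summed level was 19207 CPM in MEF-3F and 13298 CPM in MEF-2F, while untransduced MEF had 1020 CPM and pOPC 1294 CPM. Of 13 measured, 5 were called higher in MEF-3F and none lower. All 3 type IX collagen chains were higher: Col9a3 stood at 1418 CPM in MEF-3F and 313 CPM in MEF-2F and was steady, Col9a1 stood at 4116 CPM in MEF-3F and 1864 CPM in MEF-2F, and Col9a2 at 1344 against 508 CPM. Col2a1, the main collagen of cartilage, differed little at 2941 CPM in MEF-3F and 3336 CPM in MEF-2F, with 8103 CPM in block 2 of MEF-2F. Per cell, the cartilage list took a median 1.49% of UMIs in MEF-3F and 0.179% in MEF-2F, and the highest cell took 7.43% in MEF-3F and 13.6% in MEF-2F. The quartiles lay at 0.792% and 2.5% in MEF-3F and at 0.0626% and 1.5% in MEF-2F.

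Among IGF binding proteins, carriers that bind insulin-like growth factors outside the cell, 5 of 6 were measured, 1 was called higher and 4 lower. Igfbp5 stood at 659 CPM in MEF-3F and 165 CPM in MEF-2F, a 3.99-fold ratio (2.84 to 5.75), and was steady. Igfbp7 stood at 24.0 CPM in MEF-3F and 174 CPM in MEF-2F, against 1283 CPM in untransduced MEF. Igfbp2, Igfbp3 and Igfbp4 were 3.67-fold, 2.93-fold and 3.19-fold lower. H19, an imprinted fetal RNA, stood at 281 CPM in MEF-3F and 21.7 CPM in MEF-2F, a 13-fold ratio (5.41 to 40.6), against 3394 CPM in untransduced MEF. The imprinted list as a whole was not shifted, with 2 higher, H19 and Peg3, and 1 lower, Meg3, of 10.

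Secreted signals of stroma were among the lowest genes. Spp1 (osteopontin) stood at 131 CPM in MEF-3F and 1481 CPM in MEF-2F, an 11.3-fold lower level (8.58 to 15.1). Ccl2, a chemokine that draws monocytes, had 1 UMI in MEF-3F and 31 in MEF-2F, a ratio of 0.0162 (0.000398 to 0.0972). Lcn2 (lipocalin 2) had none in MEF-3F and 35 in MEF-2F, at least 23.2-fold lower, but 74.3% of its UMIs came from 1 cell and rest on an uncertain count. The antigen presentation gene H2-K1 stood at 17.5 CPM in MEF-3F and 104 CPM in MEF-2F and was steady. Of 7 measured interferon and antigen presentation genes, 2 were called lower, H2-K1 and Ifitm3, and 1 higher, Ifi27.

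Lists of general cell state and signalling had between 0 and 3 called genes each, to be read against 9.36% higher and 7.01% lower over all measured genes. Of 18 measured cell cycle genes 3 were called higher, Ccnb1, Ccnb2 and Cenpa, and none lower, all at under 120 CPM. Their UMIs in MEF-3F came from block 2 alone, since block 1 had none. Of 18 measured immediate early and heat shock genes 2 were called lower, Zfp36 at 310 CPM in MEF-3F against 1134 CPM in MEF-2F and Hspa1b, while Fos stood at 3555 CPM in MEF-3F and 3606 CPM in MEF-2F. Glycolysis and hypoxia genes had 3 called higher of 12, Pgk1, Bnip3 and Vegfa, all steady. Id and Notch genes had 3 called higher of 12, Hey1, Hey2 and Hes6. No gene of 12 measured for cholesterol synthesis and of 9 measured for p53 targets and senescence was called. Proteases and their inhibitors had 1 called higher of 11, Timp4, and 1 lower, Mmp14, and Hox genes had 1 called lower of 10, Hoxa7. Stromal chemokines had 2 called lower of 3, Ccl2 and Cxcl1. Of 2 measured neuronal and 3 measured pericyte genes none was called, and Lpl, the 1 measured adipocyte gene, was called lower.

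**Figure D3:**
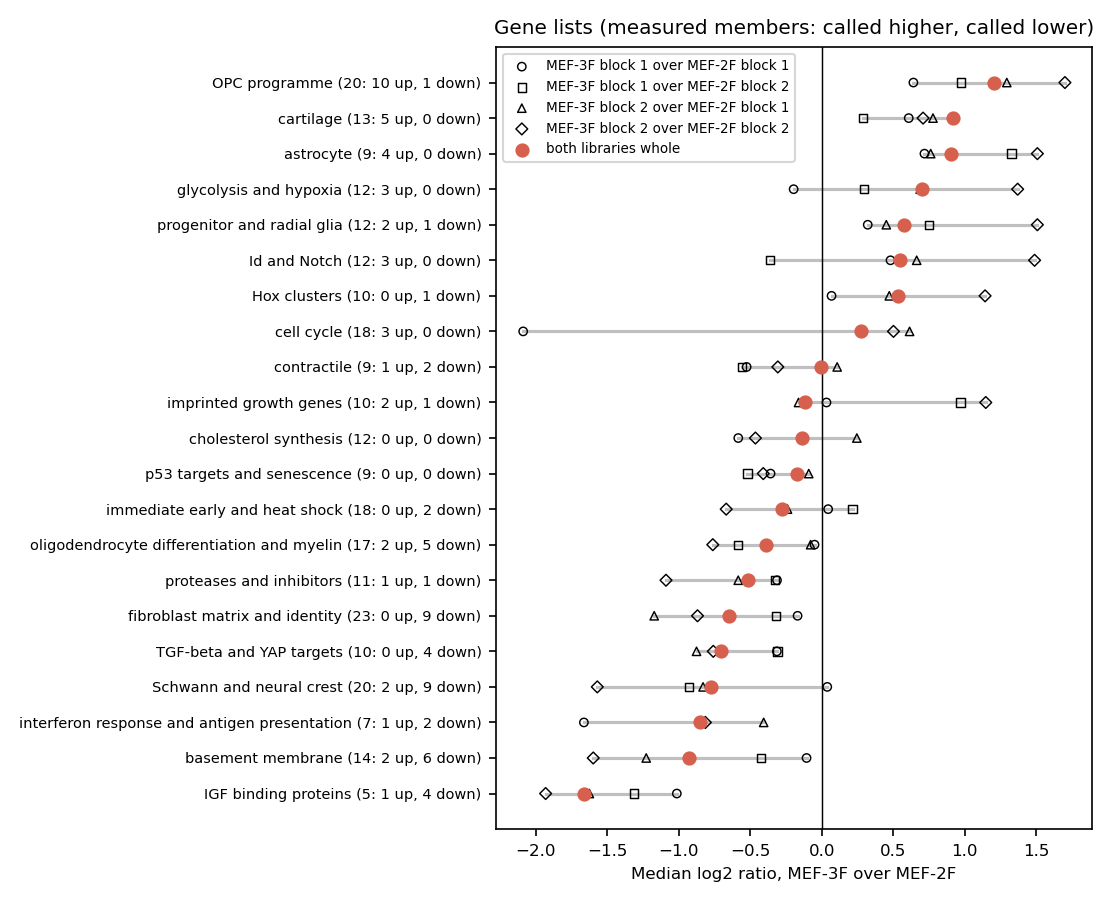
Median log2 ratio of MEF-3F over MEF-2F over the measured members of each list with 5 or more (horizontal axis; lists down the page). Filled circles are the whole libraries and open symbols the 4 pairs of blocks, joined by a line; labels give measured members and those called higher (up) and lower (down). The OPC and astrocyte lists lie above 0 in all 4 pairs, and the Schwann list runs from 0.04 to -1.57.

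The plot of list medians shows how far each depended on the blocks. The OPC list lay between 0.64 and 1.70 over the block pairs, and the astrocyte list between 0.72 and 1.51. The basement membrane list lay between -0.11 and -1.60 and the fibroblast list between -0.17 and -1.17. The Schwann list was at 0.04 between the first blocks and at -0.83 to -1.57 in the other pairs. These are descriptions of 2 libraries, and the members of a list are not replicates.

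Shares of cells were compared after thinning every cell to 1000 UMIs, which leaves 122 cells of MEF-3F and 75 of MEF-2F (39 and 7 were too shallow). Olig1 had a UMI in 37.7% of thinned cells of MEF-3F (29.1 to 46.9) and 2.67% of MEF-2F (0.325 to 9.3), against 0% in untransduced MEF and 92.2% in pOPC. Without thinning the shares were 55.3% in MEF-3F and 4.88% in MEF-2F. Aldoc had one in 54.1% of MEF-3F and 4% of MEF-2F, and Fabp7 in 40.2% and 9.33%. Foxd3 had one in 2.46% of MEF-3F (0.51 to 7.02) and 21.3% of MEF-2F (12.7 to 32.3), against 0% in untransduced MEF. Col1a1 had one in 9.84% of MEF-3F and 44% of MEF-2F, against 87.6% in untransduced MEF. For these genes the share of cells with a UMI differed in the same direction as the level. Both come from the same UMIs of the same cells, so this is no separate check.

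Olig2 and Sox10 were found in the same thinned cell in 9 of 122 cells of MEF-3F (7.38%) and 0 of 75 cells of MEF-2F, which allows up to 4.8%. All 9 were among the 95 thinned cells of block 2 of MEF-3F, and block 1 had 0 of 27. In pOPC both were found in 35.3% of thinned cells. Per cell, the OPC list, with the delivered Olig2 and Sox10 in it, took a median 0.672% of UMIs in MEF-3F and 0.493% in MEF-2F. Untransduced MEF had 0.0255% and pOPC 1.45%. The Schwann list took a median 0.334% in MEF-3F and 0.515% in MEF-2F. The fibroblast list took a median 1.39% in MEF-3F and 2.9% in MEF-2F, against 4.14% in untransduced MEF. The lowest cell took 0.182% from the fibroblast list in MEF-3F and 0.726% in MEF-2F, so every cell of both libraries had UMIs of it. The lower quartile of the OPC list was 0.483% in MEF-3F and 0.217% in MEF-2F.

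**Figure D4:**
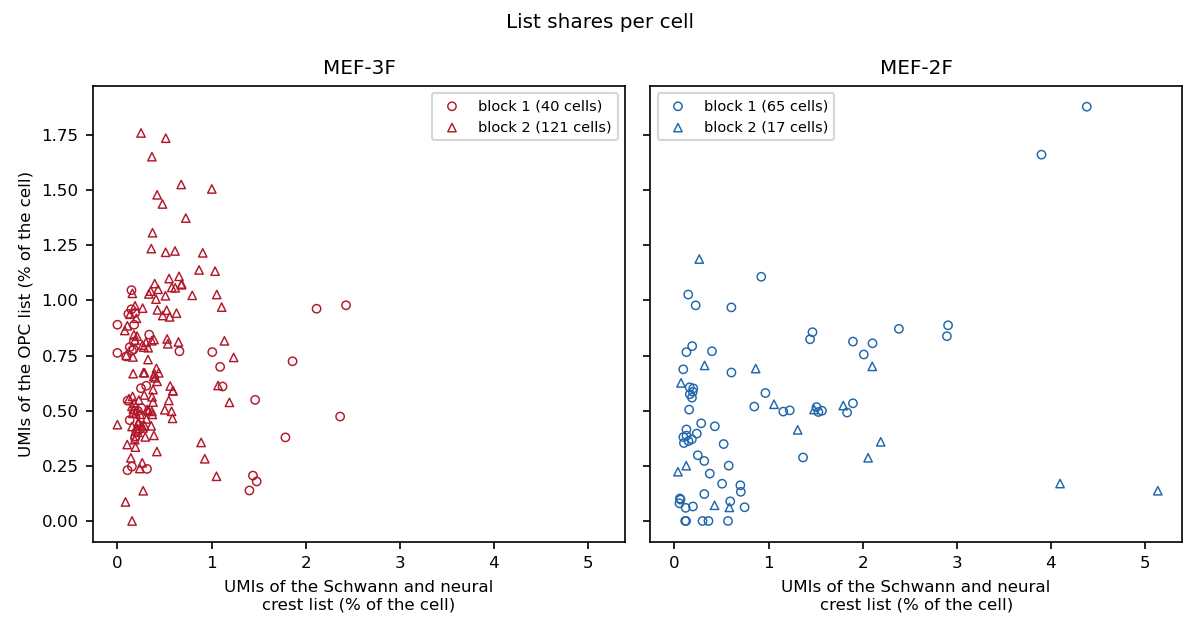
Share of a cell's UMIs from the OPC list (vertical axis, %) and from the Schwann and neural crest list (horizontal axis, %) in MEF-3F (left, red) and MEF-2F (right, blue); circles are block 1 and triangles block 2. The lists share Sox10, Fabp7 and Ednrb. On the Schwann axis the highest cell reached 2.43% in MEF-3F and 5.14% in MEF-2F.

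The plot of list shares per cell shows a tail of cells. The upper quartile of the Schwann list was 0.576% in MEF-3F and 1.46% in MEF-2F. In MEF-3F the Schwann share reached 2.43% in block 1 and 1.24% in block 2, and the OPC share 1.05% in block 1 and 1.76% in block 2. Block 1 of MEF-3F held 40 cells with a median of 0.21% for the Schwann list, and block 2 had a median of 0.367%.

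The comparison was repeated within the 84 and 27 cells with a UMI of Olig2 or Sox10, of which 71 in MEF-3F and 4 in MEF-2F are of block 2, an alternative chosen after the data were seen. Olig1 remained 11.6-fold higher in MEF-3F (5.25 to 31.9) and Fabp7 5.29-fold higher. Foxd3 was 20.5-fold lower, Ednrb 7.32-fold lower and Col1a1 7.17-fold lower. Fibroblast genes went both ways in these cells, with 9 called lower and 3 higher of 22 measured, where none was called higher over all cells. Of all 6367 genes measured in these cells, 509 were called higher and 428 lower. The 3 fibroblast genes called higher were Dcn, with 84 UMIs in MEF-3F and 0 in MEF-2F (at least 7.82-fold higher), Lum at 3.66-fold and Prrx1 at 3.21-fold. Igfbp5 was 34.5-fold higher (9.44 to 286), and Igfbp2, lower over all cells, was 8.93-fold higher (1.49 to 364) in these cells. A cell with no UMI of either factor may still carry it, so the division is one of detection.

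The genes that differed were set beside the distance between the cell types at both ends, using pOPC over untransduced MEF, which shares no library with the comparison. Of the 69 genes with a large higher level in MEF-3F, 23 (33.3%) had a large higher level in pOPC, against 9.16% of all measured genes, and 6 a large lower level. Of the 83 with a large lower level, 32 (38.6%) had a large lower level in pOPC, against 8.85% of all, and 6 a large higher level. Olig1, Pdgfra, Ncan, Fabp7 and Sall3 were of the first kind, and Col1a1, Spp1, Igfbp7 and Ccl2 of the other. No test of these shares was made. Foxd3 and Mal had no UMI in pOPC and at most 1.27 CPM in untransduced MEF.

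Pericytes received the same factors, so PC-3F over PC-2F is the same change in another donor cell, again with 1 library each. There 416 genes were called higher (5.08%) and 490 lower (5.98%) of 8190. Of the 69 genes with a large higher level in MEF-3F, 10 were called higher in PC-3F and 12 lower, against 3.43% and 4.25% of all genes measured in the fibroblast pair. Of the 83 with a large lower level, 12 were called lower in PC-3F and 5 higher. Of the 15 highest genes named above, Ncan, H19, Mmd2 and Ppp2r2b were called higher in PC-3F, and Olig1 and Col4a5 were called lower. Of the 15 lowest, Lcn2, Ccl2, Efemp1 and Sod3 were called lower in PC-3F, and Col1a1 was called higher.

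**Figure D5:**
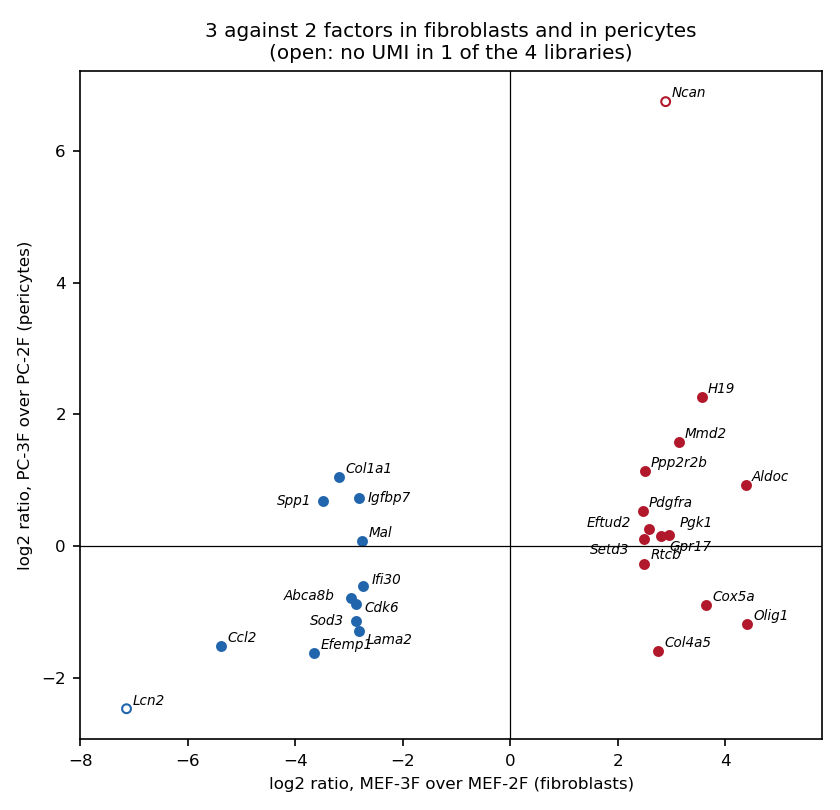
Log2 ratio of 3 over 2 factors in pericytes (vertical axis, PC-3F over PC-2F) against fibroblasts (horizontal axis, MEF-3F over MEF-2F) for the 26 of the 30 named steady genes measured in pericytes. Red genes were higher and blue lower in MEF-3F; open symbols had no UMI in 1 of the 4 libraries, so their ratio is not a measured size. Olig1 lies at 4.40 and -1.18 and Col1a1 at -3.19 and 1.05, in the corners where the donors disagree.

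The plot of both donors shows that direction was shared for some genes and not for others. Olig1 stood at 159 CPM in PC-3F and 363 CPM in PC-2F, the reverse order of the fibroblast libraries. Pdgfra stood at 537 CPM in PC-3F and 371 CPM in PC-2F, and Gpr17 at 123 and 111 CPM, so neither was called there. Ncan had 28 UMIs in PC-3F and none in PC-2F, and thus followed the fibroblast direction.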

How the data were processed

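The values the authors deposited are another unit than counts: whole-number codes per gene and barcode. Tools given in the submitters' processing notes are STAR 2.5.3a, Subread, featureCounts 1.6.1, UMI-tools 0.5.3 and bcl2fastq 2.19.1.403, with the build mm10. Counts had been assumed in planning. A code was read as the place, from 0, of a UMI count in the text-sorted list of counts that occur in a barcode block, an inference from the values. In the 2 blocks of each library, the codes read with a probability over 0.99 made up 96.4% and 99.2% of the UMIs in MEF-3F, and 98.2% and 92.0% in MEF-2F. The decoding was tested on simulated counts that were coded by the same rule. Such a test cannot check that the deposited values follow the rule.

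Barcodes with 500 or more UMIs were summed per library and per block and scaled to the library total (CPM). Ratios have exact 95% conditional binomial intervals, and shares of cells have exact Clopper-Pearson ones; both cover counting error only. Log2 ratios have 0.5 UMIs added. Python 3.11.15 was used with numpy 2.4.6, scipy 1.17.1, pandas 2.3.3 and matplotlib 3.10.9. Doublets were not called. Genes were named by rule: the 15 highest and 15 lowest steady ratios at 100 CPM and 30 UMIs or more (mitochondrial, ribosomal protein and unnamed genes left out), the 4 members of each list with the largest difference, and fixed marker genes. Other list members that were called are named beside their counts. The members and the 31 gene lists were chosen with earlier results of these data known. Alternatives covered scaling, minimum levels, the decoding and the blocks. Some called members of the lists are not reported here.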

Additional observations from a re-analysis of the deposited data

Results flagged for a closer look

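Of 178 genes called in both donors, 80 had opposite directions, 48 of them higher in MEF-3F and lower in PC-3F and 32 lower in MEF-3F and higher in PC-3F. Of all 7788 genes measured in the fibroblast pair, 9.36% were called higher and 7.01% lower in MEF-3F. In PC-3F 3.43% of them were called higher and 4.25% lower. Whether 80 of 178 differs from what unrelated directions would give was not tested. The 10 given here are from the genes named by rule. Each population is 1 library, and the difference between the donors was not tested. Values are log2 ratios with 0.5 UMIs added, MEF-3F over MEF-2F first and PC-3F over PC-2F after it. Among the lineage factor genes, Olig1 stood at 4.40 and -1.18, and Olig2 at 2.30 and -1.11. Among matrix and contractile genes, Col1a1 stood at -3.19 and 1.05, Col1a2 at -1.70 and 1.52, Col4a5 at 2.75 and -1.59, Acta2 at 4.23 and -1.10, and Mylk at -2.06 and 1.19. Igfbp5 stood at 1.98 and -1.20, and Igfbp2 at -1.87 and 4.73. Some of the fibroblast directions did not hold throughout. That of Acta2 turned between the first blocks. The log2 ratio of Mylk was above 0 against block 2 of MEF-2F, but that block had a floor of 61.1 CPM. This value can rest on the 0.5 UMIs added and is no measured turn. In cells with an Olig2 or Sox10 UMI that of Igfbp2 turned, with 32 UMIs in MEF-3F and 1 in MEF-2F. Mylk had 3 UMIs in MEF-3F and 0 in MEF-2F in these cells, so its log2 ratio above 0 is no measured turn either. Hey1 stood at 4.29 and -2.0, with no UMI in MEF-2F, so its first value is no measured size.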

How the results depend on the processing

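No paired analysis was possible because each population is 1 library. The 729 genes called higher and 546 called lower became 236 and 276 at a minimum of 100 CPM, and 69 and 83 by the 4-fold rule. They became 294 and 309 for block 1 of MEF-3F with block 1 of MEF-2F (1 with 1), and 244 and 213 for 1 with 2. For 2 with 2 the genes called higher became 398. Higher genes were 57.2% of calls, and 46.1% at a minimum of 100 CPM. Median log2 ratios of lists differed in 1 with 1 for the progenitor (OPC) list at 0.64, Schwann 0.039, fibroblast -0.17, cell cycle -2.09, glycolysis -0.20 and immediate early genes 0.045. In 1 with 2 they were -0.32 for fibroblast and 0.22 for immediate early genes. In 2 with 2 they were 1.51 for radial glia, -0.67 for immediate early genes and -1.60 for basement membrane. In cells with an Olig2 or Sox10 UMI the immediate early list stood at 0.033. Log2 ratios turned direction in 1 with 1 for Trf 0.045, Ngfr 0.20, Acta2 -0.22, Nid1 0.33, Ccnb1 -1.32, Ccnb2 -2.17 and Hes6 -0.38. In 1 with 2 they turned for Cldn11 0.59, Mylk 0.70, Tgfb1i1 0.22, Thbs1 0.70, Tgfbi 0.022, Meg3 3.03, Cxcl1 0.99 and Lpl 0.70. Pmel, Ccnb1, Ccnb2 and Hey2 had no UMI in either block there and give no value. In 2 with 2 they turned for Mylk 0.27, Thbs1 0.80 and Meg3 1.49. In cells with an Olig2 or Sox10 UMI they turned for Mylk 0.97, Igfbp2 2.60 and Igfbp4 0.0022. Values against block 2 of MEF-2F, with a floor of 61.1 CPM, can rest on the 0.5 UMIs added and need not be measured turns. In the cells with a factor UMI, Mylk had 3 UMIs in MEF-3F and 0 in MEF-2F. Trf at 0.045, Tgfbi at 0.022 and Igfbp4 at 0.0022 lie near 0, which is no clear turn. The cause of the turns was not tested. Leaving out the 5 richest cells of each library and the cells without a factor UMI were alternatives chosen after seeing the data. Block 2 of MEF-2F limits depth most.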
